A study of Mus musculus with 18 samples.

Results

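The genes described here are Fmr1, its autosomal relatives Fxr1 and Fxr2, and Cyfip1, Cyfip2, Nufip1 and Caprin1, whose products bind the Fmr1 protein FMRP. They were taken by symbol from the GENCODE M21 annotation of GRCm38, as a set proposed with earlier results of these data known, and make up 7 of the 53468 genes counted and 61 of the 136288 transcripts quantified. Polyadenylated RNA was sequenced from forebrain, midbrain and hindbrain of male mice at P25 (postnatal day 25). There were 3 Fmr1CRE mice, which carry a CRISPR-made change of a base in a cis-regulatory element (CRE) assigned to Fmr1, and 3 wild-type (WT) littermates, giving 18 libraries in 6 groups of 3. Edited founders were crossed with C57BL/6, so both genotypes share that background, and each mouse gave 1 library of each region. The paper describes several independent lines, and the one the sequenced mice came from is not given in the sources used here.

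On GRCm38, Fmr1 (ENSMUSG00000000838) lies at chrX:68678541-68717963 on the plus strand, Fxr1 (ENSMUSG00000027680) at chr3:34019943-34070322 (plus) and Fxr2 (ENSMUSG00000018765) at chr11:69632990-69653297 (plus). Cyfip1 (ENSMUSG00000030447) lies at chr7:55841745-55932602 (plus) and Cyfip2 (ENSMUSG00000020340) at chr11:46193850-46312859 (minus). Nufip1 (ENSMUSG00000022009) lies at chr14:76110891-76137379 (plus) and Caprin1 (ENSMUSG00000027184) at chr2:103762941-103797649 (minus). In that order the genes have 13, 9, 6, 12, 5, 1 and 15 annotated transcripts in the files.

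FMRP is an RNA-binding protein that associates with polyribosomes and with transport granules, and it restrains the translation of many neuronal messages near synapses. Loss of its expression causes fragile X syndrome. FXR1 and FXR2 have the same kinds of RNA-binding domain and form complexes with FMRP. CYFIP1 can join FMRP to the cap-binding protein eIF4E, and CYFIP1 and CYFIP2 are alternative subunits of the WAVE regulatory complex, which passes RAC1 signals to actin. NUFIP1 is a nuclear RNA-binding partner of FMRP that helps assemble box C/D small nucleolar ribonucleoproteins. CAPRIN1 is a component of RNA granules that binds G3BP1 and FMRP.

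The libraries held between 22455512 and 28061185 counts. Region labels were checked with marker genes, in CPM summed over each list. CPM are estimated counts corrected for transcript length, on a common scale for all libraries after TMM scaling. All 6 forebrain markers were higher in forebrain than in hindbrain without overlap, and their sum ran from 273 to 385 in forebrain and from 7.46 to 13.1 in hindbrain. In the libraries labelled midbrain the same sum was 170 to 297, and only 1 of the 6 forebrain markers separated forebrain from midbrain. The midbrain markers summed to 57.4 to 142 CPM in midbrain, against 2.65 to 19.9 in forebrain and 9.20 to 30.0 in hindbrain, so the midbrain libraries held midbrain genes together with forebrain genes. The hindbrain markers summed to 202 to 419 CPM in hindbrain, 44.7 to 113 in midbrain and 0.352 to 6.46 in forebrain, and markers of cerebellar granule cells to 638 to 1432, 243 to 557 and 72.8 to 96.5 in the same order.

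The forebrain libraries numbered 3 did not follow the other regions of the mice they are labelled with. Between the WT and Fmr1CRE mice numbered 3, 47 genes were at least 1 apart on the log2 scale with 1 sign both in midbrain and in hindbrain. In forebrain 17 of them differed by as much in the opposite direction and 2 in the same direction. For the mice numbered 1 the corresponding numbers were 11 opposite and 17 the same of 57 genes, and for those numbered 2 they were 9 and 14 of 53. Whether the labels of these 2 libraries were exchanged between WT and Fmr1CRE was not tested, and the labels were kept. Values without both libraries are given beside the region counts of the lists and beside the genotype tests of the members in forebrain. For the region tests of the members, ratios and segments they are given for part of the contrasts only. Without both libraries the forebrain sums of the marker lists above ran from 273 to 363 CPM (forebrain), 2.65 to 11.1 (midbrain), 0.352 to 6.46 (hindbrain) and 72.8 to 81.2 (granule cells).

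Coding segments that are present in some transcripts of Fmr1, Fxr1 and Cyfip1 and absent from others are shown first, since they are what the transcript results below are about. The capitals mark the alternative segment and the lower-case letters mark 15 transcribed bases on either side, as they stand in the spliced transcript. All lie on the plus strand of GRCm38. The Fmr1 segment of 63 bases is a whole exon, at chrX:68705861-68705923, and the one of 75 bases is part of a 183-base exon, at chrX:68712231-68712305. The Fxr1 segment of 87 bases is part of a 208-base exon, at chr3:34058082-34058168, and the Fxr1 exons of 81 and 92 bases lie at chr3:34064974-34065054 and chr3:34068161-34068252. The Cyfip1 exons of 154 and 148 bases, at chr7:55898238-55898391 and chr7:55897825-55897972, take each other's place. The segments of 63, 75, 87 and 81 bases keep the reading frame, and the Fxr1 exon of 92 bases leaves a remainder of 2 when divided by 3.
Fmr1 63: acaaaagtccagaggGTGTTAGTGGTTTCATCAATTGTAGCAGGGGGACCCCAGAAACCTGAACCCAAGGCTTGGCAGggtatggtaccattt
Fmr1 75: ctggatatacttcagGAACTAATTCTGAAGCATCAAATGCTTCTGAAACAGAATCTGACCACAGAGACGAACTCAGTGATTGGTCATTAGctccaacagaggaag
Fxr1 87: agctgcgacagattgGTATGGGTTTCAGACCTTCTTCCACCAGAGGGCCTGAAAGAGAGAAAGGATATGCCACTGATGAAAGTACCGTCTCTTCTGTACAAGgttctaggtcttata
Fxr1 81: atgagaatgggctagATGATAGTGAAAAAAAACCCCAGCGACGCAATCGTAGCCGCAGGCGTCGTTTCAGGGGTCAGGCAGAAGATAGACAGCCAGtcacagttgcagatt
Fxr1 92: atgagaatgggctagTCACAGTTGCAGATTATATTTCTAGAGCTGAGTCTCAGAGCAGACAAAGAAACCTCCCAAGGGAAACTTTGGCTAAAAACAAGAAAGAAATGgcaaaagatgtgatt
Cyfip1 154: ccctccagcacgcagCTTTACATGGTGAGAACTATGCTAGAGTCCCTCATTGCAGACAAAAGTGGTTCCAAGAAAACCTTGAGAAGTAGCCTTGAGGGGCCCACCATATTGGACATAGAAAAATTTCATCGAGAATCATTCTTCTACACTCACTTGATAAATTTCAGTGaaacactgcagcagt
Cyfip1 148: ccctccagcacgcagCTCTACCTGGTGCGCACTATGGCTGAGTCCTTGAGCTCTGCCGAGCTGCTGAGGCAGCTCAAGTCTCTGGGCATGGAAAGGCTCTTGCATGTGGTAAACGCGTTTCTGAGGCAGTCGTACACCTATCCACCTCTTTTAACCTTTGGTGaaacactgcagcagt

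The edit itself was directed by a guide of 20 bases, shown with the protospacer-adjacent motif in capitals, since it defines where the Fmr1CRE mice were cut. The 180-base repair template supplied with it matched 22 of these 23 bases. The place of this site in the genome was not analysed here.
guide and PAM: accttgtgtctatgactattTGG

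Levels of different genes were compared in TPM (a share of all transcripts that is corrected for length), summed over the protein-coding transcripts with a complete annotated reading frame. In forebrain Cyfip2 stood highest at 37.8 TPM ± 9.17 (SD, n = 6), followed by Caprin1 at 16.5 ± 2.38, Fxr1 at 14.2 ± 1.92 and Fmr1 at 10.01 ± 1.743. Fxr2 at 8.28 ± 1.41 and Cyfip1 at 7.57 ± 1.51 TPM came next, and Nufip1 was lowest at 1.41 ± 0.189. Of the neighbours in this order, only Fxr2 and Cyfip1 were not separated within libraries, with Fxr2 above Cyfip1 in 5 of 6 (two-sided exact sign-flip permutation test, p = 0.219). The remaining neighbours kept their order in 6 of 6 forebrain libraries, with an exact permutation p of 0.03125, the smallest this design can give, adjusted to 0.0433 over the 18 pairs of neighbours. The order was the same without the forebrain libraries numbered 3, with each gene above the next in 4 of 4 libraries, and the means were 36.4 TPM ± 11.4 for Cyfip2, 16.5 ± 3.02 for Caprin1, 14.2 ± 2.13 for Fxr1, 10.2 ± 2.12 for Fmr1, 8.46 ± 1.701 for Fxr2, 7.20 ± 1.79 for Cyfip1 and 1.42 ± 0.237 for Nufip1 (SD, n = 4).

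Over complete coding transcripts the order was similar in midbrain and changed at the top in hindbrain. In midbrain Cyfip2 reached 52.6 TPM ± 14.7, Caprin1 25.2 ± 3.66, Fxr1 21.2 ± 0.608, Fxr2 11.8 ± 1.61, Fmr1 11.04 ± 0.956, Cyfip1 9.80 ± 1.54 and Nufip1 1.93 ± 0.247 (SD, n = 6). Here Caprin1 and Fxr1, Fxr2 and Fmr1, and Fmr1 and Cyfip1 were not separated (adjusted p from 0.0804 to 0.132, exact permutation tests). In hindbrain Fxr1 stood highest at 23.4 TPM ± 3.20, above Caprin1 at 19.5 ± 2.73 in 6 of 6 libraries, and Cyfip2 followed at 18.4 ± 4.30, not separated from Caprin1 (adjusted exact permutation p = 0.132). Fxr2 at 10.3 ± 1.97, Fmr1 at 8.04 ± 1.32, Cyfip1 at 6.60 ± 0.957 and Nufip1 at 1.64 ± 0.162 followed, each above the next in 6 of 6 libraries.

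The choice of transcripts matters most for Fxr2, Caprin1 and Cyfip1. The only Fxr2 transcript with a complete reading frame, Fxr2-201, took 76.9% of the reads of the gene in forebrain but 19.0% of its TPM, since short transcripts without a reading frame weigh more per length. With all transcripts summed, Fxr2 was at 43.7 TPM ± 7.05 in forebrain, above Cyfip2 at 39.9 ± 10.5, and Caprin1 was at 53.7 ± 10.1 (SD, n = 6). Forebrain against hindbrain was then -0.29 ± 0.323 for Fxr2 and -0.04 ± 0.514 for Caprin1 on the log2 scale (SD, n = 6). So Fxr1 stood highest in hindbrain only over complete coding transcripts. For Fxr1, Cyfip2 and Nufip1 the complete coding transcripts made up at least 92.5% of the mean TPM in every region.

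**Figure D1:**
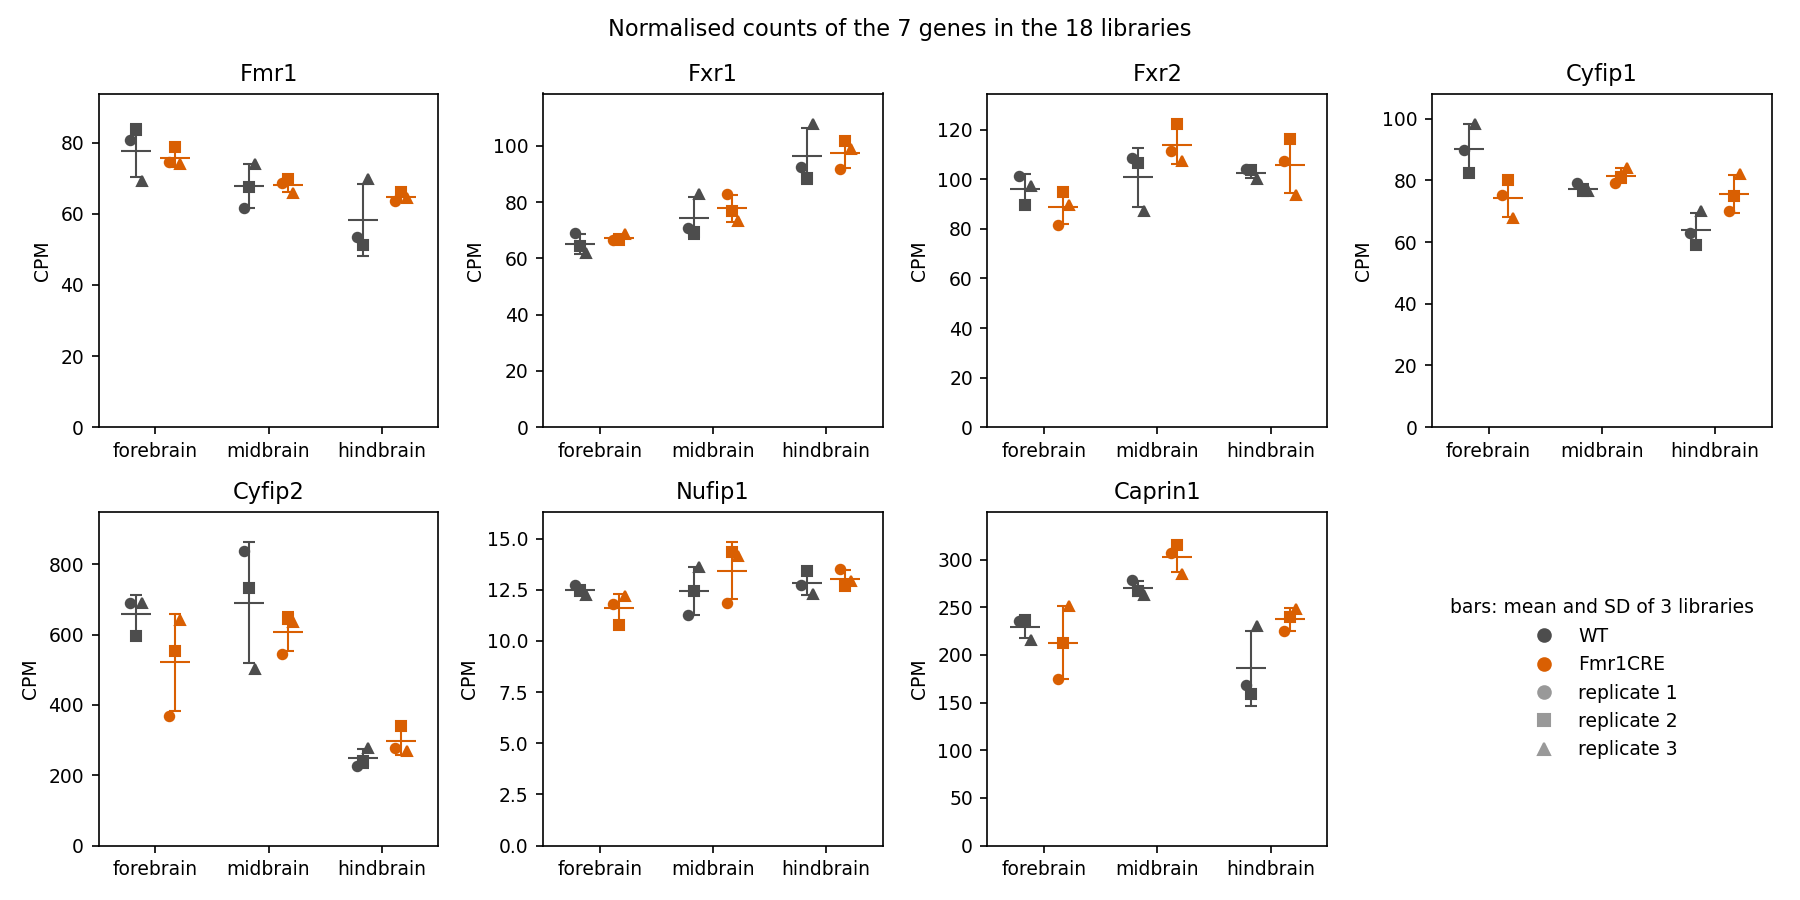
Normalised estimated count (CPM) of each of the 7 genes in the 18 libraries, 1 panel a gene with its own linear axis from 0, by region and genotype. Each point is a library and the bar is the mean of 3 mice. Cyfip2 in hindbrain (226 to 342 CPM) lies below all forebrain and midbrain libraries (370 to 838 CPM), and Fxr1 climbs from forebrain to hindbrain in both genotypes.

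Regions were compared within mice, each contrast being fitted on all 20363 genes that passed the filter on low counts, among them all 7 members (edgeR's quasi-likelihood test with mouse as a block, Benjamini-Hochberg adjustment, threshold 0.05). Between forebrain and hindbrain 3 of the 7 members differed, when 50.1% of all genes tested did. Between midbrain and hindbrain it was again 3 of 7, against 47.5% of all genes, and between forebrain and midbrain 1 of 7, against 17.0%. Without the forebrain libraries numbered 3, the counts were 5 of 7 for forebrain against hindbrain, when 40.8% of all genes were called, and 1 of 7 for forebrain against midbrain, when 13.7% were. Libraries of forebrain and hindbrain did not overlap for 2 members (27.7% of all genes), those of forebrain and midbrain for 2 (10.5%) and those of midbrain and hindbrain for 3 (26.9%). In whole tissue, fewer cells of a type and less RNA per cell cannot be told apart.

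Cyfip2, the CYFIP gene used mainly by neurons, differed most. Its level in the WT libraries numbered 1 to 3 was 691, 597 and 690 CPM in forebrain, 838, 732 and 502 CPM in midbrain, and 226, 241 and 277 CPM in hindbrain. In the Fmr1CRE libraries it was 370, 553 and 641 CPM in forebrain, 545, 644 and 636 CPM in midbrain and 278, 342 and 270 CPM in hindbrain. The hindbrain libraries were the lowest in both genotypes and did not overlap with either other region, while forebrain and midbrain overlapped widely and the forebrain library Fmr1CRE 1 stood closest to hindbrain. Cyfip2 was 2.13-fold higher in forebrain than in hindbrain (95% confidence interval 1.70 to 2.67, adjusted p = 3.92e-05) and 2.36-fold higher in midbrain than in hindbrain (1.88 to 2.95, adjusted p = 2.02e-05). Without the forebrain libraries numbered 3, the log2 difference between forebrain and hindbrain was 0.94 in place of 1.09 and still passed the test (adjusted p = 8.97e-04).

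Fxr1, the relative known for its many splice forms, went the other way. Its level was 68.9, 64.3 and 62.1 CPM in WT forebrain, 70.8, 69.3 and 83.1 CPM in WT midbrain and 92.7, 88.8 and 108 CPM in WT hindbrain. In Fmr1CRE it was 66.5, 66.7 and 68.8 CPM in forebrain, 82.9, 77.0 and 73.4 CPM in midbrain and 91.6, 102 and 98.9 CPM in hindbrain. The 3 regions did not overlap, although the gap between forebrain and midbrain was under 1 CPM. The log2 fold change of forebrain against hindbrain was -0.55 (SE 0.0668, adjusted p = 1.26e-05), or -0.50 without the forebrain libraries numbered 3 (adjusted p = 2.02e-04), and the log2 fold change of midbrain against hindbrain was -0.35 (SE 0.0666, adjusted p = 7.39e-04). Forebrain against midbrain gave -0.20, which missed the threshold with edgeR (adjusted p = 0.0581, and 0.169 without the forebrain libraries numbered 3) and passed it with DESeq2 (adjusted p = 0.0172).

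Caprin1 was highest in midbrain. It was at 279, 267 and 263 CPM in WT midbrain and at 307, 315 and 285 CPM in Fmr1CRE midbrain. Forebrain libraries held 235, 236 and 216 CPM in WT and 174, 213 and 251 CPM in Fmr1CRE, and hindbrain libraries held 168, 159 and 231 CPM in WT and 225, 240 and 248 CPM in Fmr1CRE. No midbrain library overlapped with either other region. Against hindbrain the midbrain level was 1.36-fold higher (95% confidence interval 1.15 to 1.61, adjusted p = 0.00556). When reads were summed without the correction for transcript length, the log2 fold change was 0.21 in place of 0.45 and still passed (adjusted p = 0.0188). Forebrain against midbrain gave a log2 fold change of -0.37 (SE 0.114, adjusted p = 0.0386), a call that was lost when the mouse WT 1 (adjusted p = 0.0545), WT 3 (0.0682), Fmr1CRE 1 (0.122), Fmr1CRE 2 (0.107) or Fmr1CRE 3 (0.0586) was left out, and without the forebrain libraries numbered 3 (0.104). With plainly summed reads it was -0.28 and passed (adjusted p = 0.00922).

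Fmr1 itself was higher in forebrain than in hindbrain. It was at 80.6, 83.4 and 69.2 CPM in WT and 74.6, 78.8 and 74.1 CPM in Fmr1CRE forebrain. Hindbrain held 53.6, 51.1 and 69.8 CPM in WT and 63.5, 66.2 and 64.5 CPM in Fmr1CRE, so the ranges met only through the libraries numbered 3 of WT, which were nearly equal in both regions. The log2 fold change was 0.33 (SE 0.0847, 95% confidence interval 0.147 to 0.511, adjusted p = 0.0052) and 0.42 without the forebrain libraries numbered 3 (adjusted p = 0.00263). With the WT libraries alone the call was lost (log2 fold change 0.42, adjusted p = 0.0522). Midbrain lay between, at 61.6, 67.5 and 74.1 CPM in WT and 68.7, 69.7 and 65.8 CPM in Fmr1CRE, and did not pass the test against either region (adjusted p = 0.16 and 0.17).

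Cyfip1, Fxr2 and Nufip1 did not pass the main edgeR test in any pair of regions. With DESeq2, Fxr2 passed between forebrain and hindbrain (adjusted p = 0.0341) and between forebrain and midbrain (0.0296). With plainly summed reads in edgeR, Fxr2 passed in the same contrasts (adjusted p = 0.00151 and 0.00686). Cyfip1 then passed between forebrain and hindbrain (0.00765) and between midbrain and hindbrain (0.00662). Cyfip1, the more widely expressed CYFIP gene, had a median of 81.3 CPM in forebrain (lowest 67.7, highest 98.3), 79.2 in midbrain (76.4 to 84.1) and 70.0 in hindbrain (59.0 to 82.2). Its log2 fold change of forebrain against hindbrain was 0.24 (adjusted p = 0.0546) and passed without the forebrain libraries numbered 3 (0.27, adjusted p = 0.0283). Fxr2 had a median of 92.4 CPM in forebrain (81.5 to 101), 108 in midbrain (87.2 to 122) and 104 in hindbrain (93.5 to 116), with log2 fold changes of -0.17 for forebrain against hindbrain (adjusted p = 0.0778) and -0.21 against midbrain (0.074), both past the threshold without the forebrain libraries numbered 3 (-0.24, adjusted p = 0.0404, and -0.28, adjusted p = 0.0466). Nufip1 had a median of 12.2 CPM in forebrain (10.8 to 12.7), 13.0 in midbrain (11.3 to 14.3) and 12.8 in hindbrain (12.3 to 13.5), and its 95% confidence interval for forebrain against hindbrain ran from -0.283 to 0.0777 on the log2 scale.

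Other cell types moved with the regions. Oligodendrocyte markers, all 6 of them higher in hindbrain than in forebrain without overlap, summed to 12878 to 16422 CPM in forebrain, 16980 to 20197 in midbrain and 29536 to 41483 in hindbrain. The 5 neuronal markers summed to 2866 to 3620 CPM in forebrain, 3206 to 3703 in midbrain and 2881 to 3093 in hindbrain, with 2 of them higher and 1 lower in forebrain than in hindbrain without overlap. All 5 microglial markers were higher in forebrain than in hindbrain without overlap, where they summed to 230 to 337 and 109 to 133 CPM, with 173 to 224 in midbrain. Astrocyte markers summed to 3003 to 6479 CPM in forebrain, 2882 to 4109 in midbrain and 2235 to 3158 in hindbrain, and choroid plexus markers to 357 to 861, 162 to 471 and 895 to 3215 CPM. Of the 5 astrocyte markers, 1 was higher and 2 were lower in forebrain than in hindbrain without overlap. Their mean log2 CPM was 8.49 in forebrain, 8.50 in midbrain and 8.61 in hindbrain, so the sum and the mean did not move the same way. No marker of these lists was at 0 in all libraries, and the part of these cell types in the differences of the members was not tested. On the TPM scale the median of all genes shifted by -0.12 (forebrain against hindbrain), -0.32 (forebrain against midbrain) and 0.20 (midbrain against hindbrain) on the log2 scale, while on the CPM scale it was -0.01, 0.02 and -0.03. On the TPM scale Fmr1 (-0.17, against 0.18 in CPM) and Cyfip1 (-0.31 against 0.04) had the opposite sign between forebrain and midbrain, as did Caprin1 between forebrain and hindbrain (-0.04 against 0.07) and Nufip1 between midbrain and hindbrain (0.23 against -0.00), none of which was called. The called differences of Cyfip2, Fxr1, Caprin1 and Fmr1 had the same sign on both scales.

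**Figure D2:**
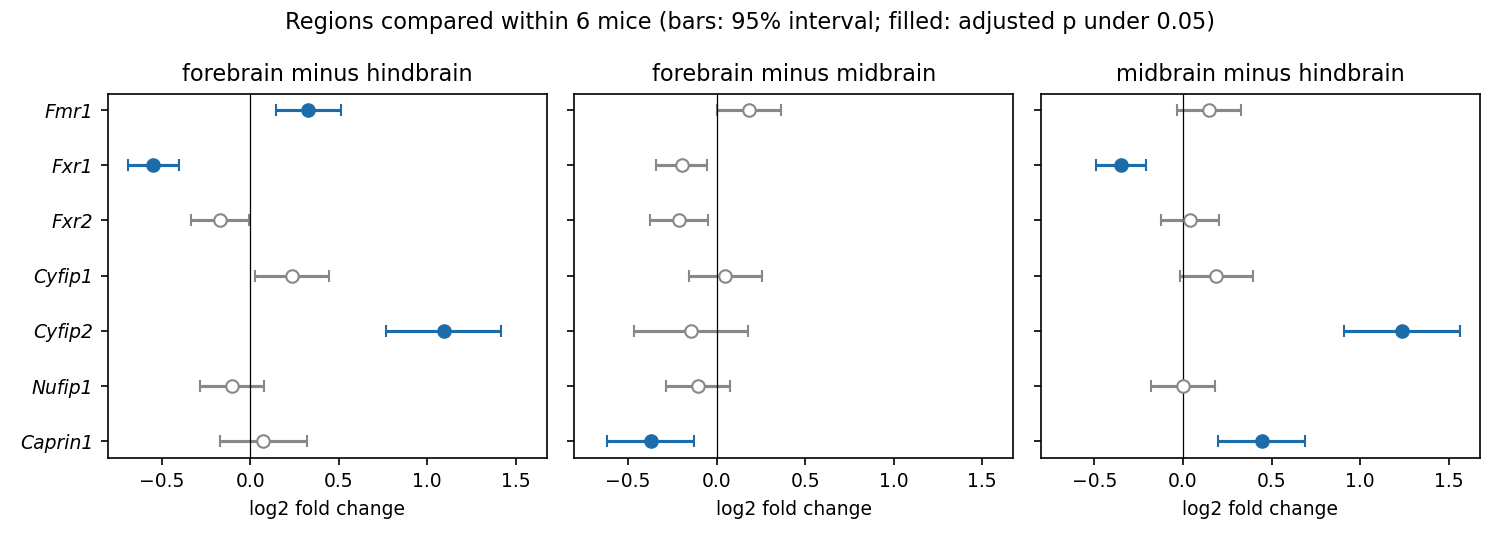
Log2 fold change between regions for the 7 genes, from edgeR fits over 18 libraries with mouse as a block; points are estimates and bars are 95% confidence intervals, with filled points for adjusted p under 0.05. Cyfip2 is higher in forebrain (1.09) and midbrain (1.24) than in hindbrain, Fxr1 is lower (-0.55 and -0.35), and Caprin1 is lower in forebrain (-0.37) and higher in midbrain against hindbrain (0.45).

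The balance between relatives was read as a ratio of TPM within each library, over complete coding transcripts, so that the scale of a library cancels. The ratio of Fxr1 to Fmr1 was 1.301, 1.40 and 1.44 in WT forebrain, 1.90, 1.82 and 2.06 in WT midbrain and 3.04, 3.20 and 2.93 in WT hindbrain. In Fmr1CRE it was 1.47, 1.45 and 1.52 in forebrain, 2.11, 1.79 and 1.89 in midbrain and 2.67, 2.82 and 2.93 in hindbrain. The regions did not overlap, and each mouse had its lowest ratio in forebrain and its highest in hindbrain, those numbered 1 and 2 included. The mean log2 difference was -1.03 ± 0.146 (SD, n = 6) between forebrain and hindbrain, -0.43 ± 0.109 between forebrain and midbrain and -0.60 ± 0.162 between midbrain and hindbrain (two-sided exact sign-flip permutation test, p = 0.03125 each, the smallest 6 mice allow, adjusted p = 0.0804 over 18 tests). No ratio could pass after adjustment, as the smallest p of 6 mice is too large for this family of 18 tests, genotype tests included. The forebrain differences were -1.06 ± 0.178 and -0.44 ± 0.111 (SD, n = 4) without the forebrain libraries numbered 3, lower in forebrain in 4 of 4 mice.

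Fxr2 to Fmr1 moved the same way with more spread, and the ratio of the CYFIP pair was higher in hindbrain in each mouse. The Fxr2 to Fmr1 ratio averaged 0.830 ± 0.0630 in forebrain, 1.07 ± 0.109 in midbrain and 1.296 ± 0.259 in hindbrain (SD, n = 6), lower in forebrain than in hindbrain in 6 of 6 mice. Cyfip1 to Cyfip2 averaged 0.203 ± 0.0223 (forebrain), 0.193 ± 0.0281 (midbrain) and 0.364 ± 0.0281 (hindbrain). The hindbrain values, 0.315 to 0.397, did not overlap with those of forebrain and midbrain, 0.158 to 0.241. The log2 difference was -0.84 ± 0.142 for forebrain against hindbrain and -0.93 ± 0.277 for midbrain against hindbrain, in 6 of 6 mice each (exact permutation p = 0.03125, adjusted p = 0.0804), and 0.08 ± 0.177 for forebrain against midbrain (exact permutation p = 0.281). The differences against hindbrain likewise could not pass after adjustment. When the forebrain libraries numbered 3 were left out, forebrain against hindbrain gave -0.84 ± 0.175 for Cyfip1 to Cyfip2 and -0.78 ± 0.339 for Fxr2 to Fmr1 (SD, n = 4), each lower in 4 of 4 mice. Between genotypes no ratio could pass the exact permutation test in any region, as its smallest p with 3 against 3 mice is 0.1. The smallest adjusted p there was 0.18.

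**Figure D3:**
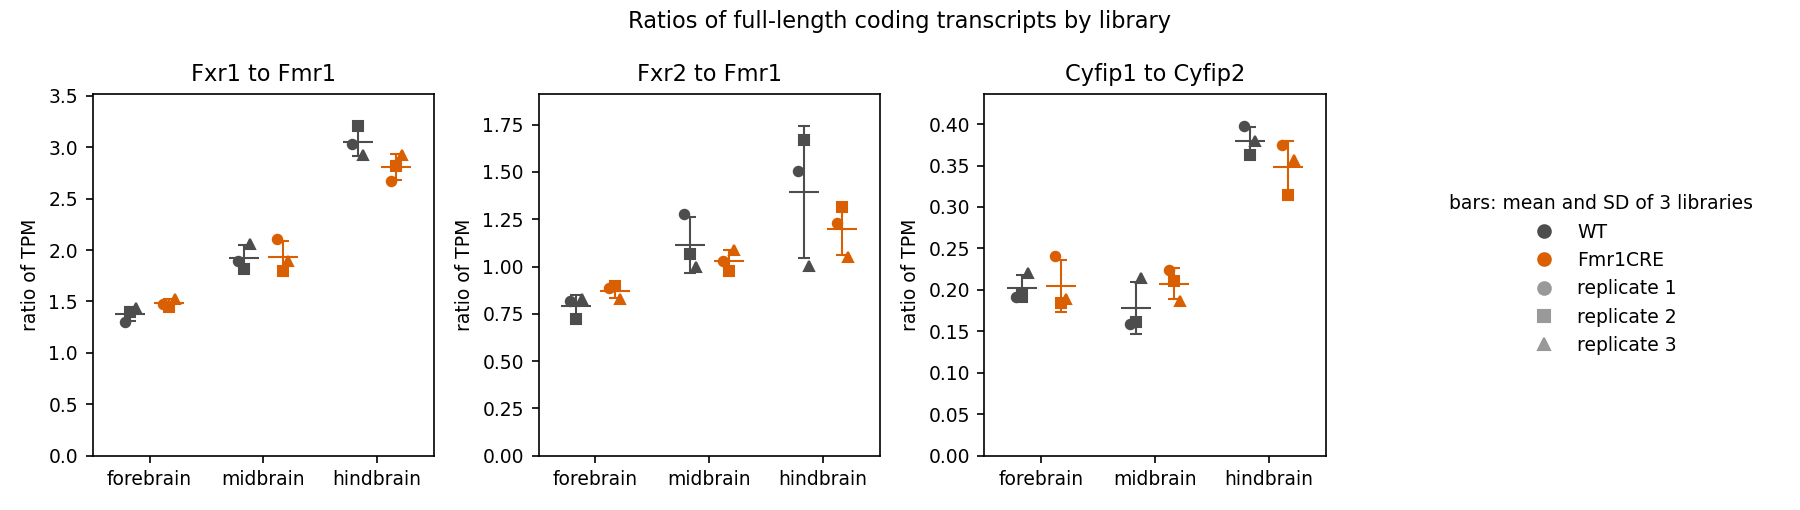
Ratios of TPM within each library for Fxr1 to Fmr1, Fxr2 to Fmr1 and Cyfip1 to Cyfip2, by region and genotype on linear axes from 0, each point a library. Fxr1 to Fmr1 runs from 1.301 to 1.52 in forebrain and from 2.67 to 3.20 in hindbrain without overlap, and Cyfip1 to Cyfip2 is at 0.315 to 0.397 in hindbrain, above all other libraries.

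Transcripts of the 7 genes were described by their share of the TPM of the gene. These shares come from single-end reads of 50 bases assigned by a model, and the uncertainty of the assignment is not included in the SDs. Fmr1 was spread over 4 transcripts with at least 5% in some region, of which Fmr1-206, which lacks the 63-base exon and holds the 75-base segment, took 50.7% ± 3.46 in forebrain, 57.9% ± 4.41 in midbrain and 48.9% ± 4.81 in hindbrain (SD, n = 6). Fmr1-202, with the 63-base exon and without the 75-base segment, took 22.1% ± 2.34, 15.7% ± 2.26 and 17.4% ± 3.88. The retained-intron transcript Fmr1-208 took 14.7% of the TPM in forebrain but 1.94% of the reads, as it is short. Cyfip2 was nearly all Cyfip2-202, from 91.1% in hindbrain to 94.1% in forebrain, and Nufip1 has a single annotated transcript.

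Grouped by segment, the shares of the 63-base and 75-base segments of Fmr1 differed between forebrain and midbrain in 1 direction in all 6 mice. No segment could pass after adjustment, as the smallest p of 6 mice is too large for this family of 42 tests, genotype tests included. Among transcripts that span the site, those with the 63-base exon made up 29.3%, 32.8% and 25.6% in WT forebrain and 28.3%, 25.5% and 25.5% in Fmr1CRE forebrain. Midbrain held 21.8%, 21.9% and 21.2% in WT and 15.5%, 23.2% and 20.4% in Fmr1CRE, all below every forebrain library. Hindbrain spread over the whole range, from 18.4% to 33.6%. The difference of forebrain against midbrain was 7.16 percentage points ± 4.04 (SD, n = 6), higher in 6 of 6 mice, and that of the 75-base segment was -7.60 ± 5.37, lower in 6 of 6 mice, as both are read mostly from the same pair of transcripts (exact permutation p = 0.03125, adjusted p = 0.219 over 42 tests of segments, which is the lowest adjusted p reached in that family). These differences were 8.36 ± 4.62 and -9.68 ± 5.203 percentage points (SD, n = 4) without the forebrain libraries numbered 3, in the same direction in 4 of 4 mice. A segment of 6 bases at the edge of another Fmr1 exon was in 92.0% ± 5.41 of spanning transcripts in forebrain and 94.7% ± 2.82 in midbrain, higher in forebrain in 2 of 6 mice (exact permutation p = 0.25).

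In Fxr1 the 81-base exon had a higher share in forebrain than in hindbrain in all 6 mice, which again could not pass after adjustment. The 87-base segment did so only when Fxr1-207, a transcript subject to nonsense-mediated decay, was counted. The 81-base exon, found only in Fxr1-201, was in 5.58%, 8.90% and 8.59% of spanning transcripts in WT forebrain and in 10.3%, 7.42% and 7.54% in Fmr1CRE forebrain. In hindbrain it was in 2.72%, 3.79% and 2.32% in WT and in 3.403%, 2.45% and 2.24% in Fmr1CRE, so that no library of one region overlapped with the other, and midbrain lay between with 4.70% to 8.14%. Forebrain exceeded hindbrain by 5.23 percentage points ± 1.38 and midbrain exceeded hindbrain by 2.82 ± 1.65 (SD, n = 6), each in 6 of 6 mice (exact permutation p = 0.03125, adjusted p = 0.219). The 87-base segment made up 25.1% ± 4.502 in forebrain, 18.9% ± 1.90 in midbrain and 17.9% ± 2.58 in hindbrain, higher in forebrain than in hindbrain (7.18 points ± 4.23) and than in midbrain (6.18 ± 4.73) in 6 of 6 mice. With Fxr1-207 left out, the 87-base segment in the forebrain library Fmr1CRE 1 was at 11.3%, below the midbrain (16.8%) and hindbrain (14.1%) of that mouse. The differences were then 4.76 points ± 6.26 against hindbrain, in 5 of 6 mice, and 3.76 ± 6.81 against midbrain, in 4 of 6 mice (exact permutation p = 0.09375 and 0.25). With the forebrain libraries numbered 3 left out, forebrain exceeded hindbrain by 4.96 points ± 1.65 for the 81-base exon and by 7.53 ± 4.72 for the 87-base segment, Fxr1-207 included (SD, n = 4), each in 4 of 4 mice. The 92-base exon, at 39.2% ± 7.74, 41.6% ± 6.33 and 35.2% ± 4.83, and the mutually exclusive Cyfip1 exons, with the 154-base form at 79.0% ± 3.51, 77.9% ± 6.19 and 79.6% ± 6.20, did not pass the same test between regions (exact permutation p at least 0.125).

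**Figure D4:**
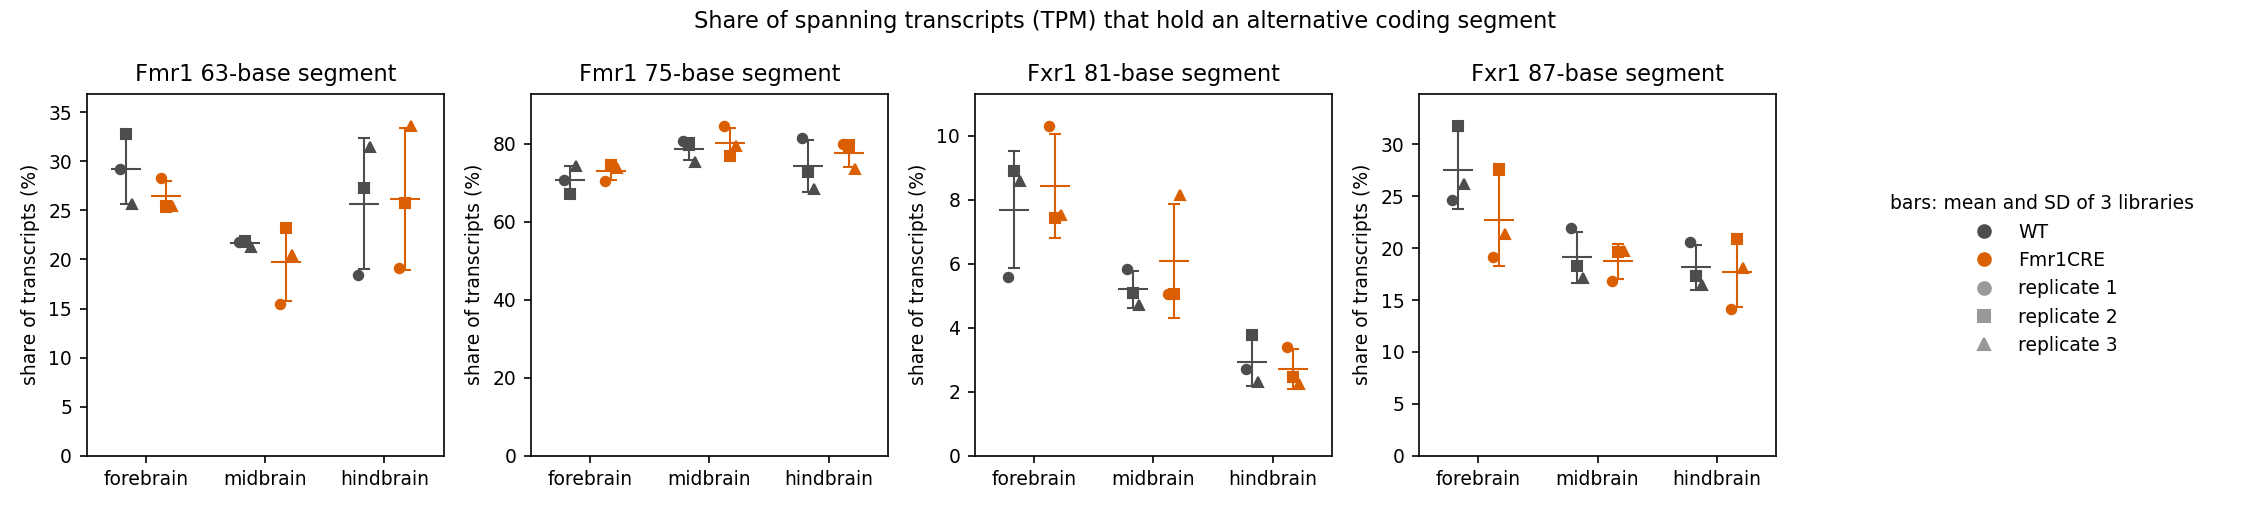
Share in percent of spanning transcripts that hold the Fmr1 segments of 63 and 75 bases and the Fxr1 segments of 81 and 87 bases, by region and genotype, each point a library. The Fxr1 81-base exon is at 5.58% to 10.3% in forebrain and at 2.24% to 3.79% in hindbrain, and the Fmr1 63-base exon is lower in every midbrain library than in every forebrain library.

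The test of isoform usage over all genes (edgeR's diffSpliceDGE, threshold 0.05 after Benjamini-Hochberg adjustment) called Fxr1 between forebrain and hindbrain (adjusted p = 0.00312, with 3.56% of the 12011 genes tested called) and between forebrain and midbrain (adjusted p = 0.0152, with 1.38% called). It called 0 members between midbrain and hindbrain, where 3.41% of genes were called. The transcript behind both Fxr1 calls was Fxr1-207, annotated as a target of nonsense-mediated decay and the only member transcript called, when 1.17% of transcripts were called between forebrain and hindbrain and 0.368% between forebrain and midbrain (0.943% between midbrain and hindbrain). Its share of the TPM of Fxr1 was 4.004%, 0% and 0% in WT forebrain and 8.34%, 4.32% and 0% in Fmr1CRE forebrain, and it was listed at 0 in all midbrain and hindbrain libraries. The calls thus rest on 3 forebrain libraries, and the first was lost without WT 1 (adjusted p = 0.091) or Fmr1CRE 2 (0.127), and the second without WT 1 (0.2), Fmr1CRE 1 (0.151) or Fmr1CRE 2 (0.306). With the WT libraries alone neither call was made (adjusted p = 1), and without the forebrain libraries numbered 3, both of which hold Fxr1-207 at 0, both were (0.0114 and 0.0323). With limma the first call was kept (adjusted p = 0.0144), the second was lost (0.385), and Fxr2 was called between forebrain and midbrain (0.0409). Of the other members, Fmr1 came closest between forebrain and hindbrain (adjusted p = 0.141).

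The Fmr1CRE and WT mice were compared within each region. There 0 of the 7 members differed between Fmr1CRE and WT with edgeR, when 0.0% (forebrain), 0.00543% (midbrain) and 0.0% (hindbrain) of all genes passed, and 0 of 7 differed in the libraries of a mouse added together over the 3 regions (0.00451% of all genes). At an unadjusted p under 0.05, 1002, 1135, 981 and 820 genes passed in these 4 comparisons, and DESeq2 called 31, 62, 60 and 29 genes and 0 members. For Fmr1, whose values stand above, the log2 fold change of Fmr1CRE against WT was -0.00 (95% confidence interval -0.262 to 0.255) in forebrain, 0.01 (-0.230 to 0.241) in midbrain and 0.15 (-0.156 to 0.449) in hindbrain. The WT hindbrain library numbered 3 was high at 69.8 CPM and the Fmr1CRE hindbrain libraries were close together, from 63.5 to 66.2 CPM.

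Cyfip1 was the member whose genotypes separated in every region, in different directions. In forebrain the WT libraries held 89.9, 82.4 and 98.3 CPM and the Fmr1CRE libraries 75.1, 80.1 and 67.7 CPM. In midbrain they held 79.1, 76.5 and 76.4 CPM against 79.3, 81.2 and 84.1 CPM, and in hindbrain 63.1, 59.0 and 70.0 CPM against 70.0, 75.0 and 82.2 CPM, where the nearest libraries of the groups were equal to the digits given and the WT one was lower beyond them. Fmr1CRE was lower in forebrain and higher in midbrain and hindbrain, with log2 fold changes of -0.24 (SE 0.121, adjusted p = 0.806), 0.08 (SE 0.0776, adjusted p = 0.901) and 0.23 (SE 0.112, adjusted p = 0.875). The genotypes of Cyfip1 did not overlap in any region (exact permutation p = 0.1, the smallest that 3 against 3 mice can give). They also did not overlap for Nufip1 in forebrain and Caprin1 in midbrain, and for all genes this held for 10.2% (forebrain), 11.3% (midbrain) and 10.8% (hindbrain). The difference between the regions was tested as the interaction of genotype and region, in which 0 of 20363 genes passed after adjustment (1454 at an unadjusted p under 0.05). Cyfip1 had an unadjusted p of 0.00788 and an adjusted p of 0.68 there. Without the forebrain libraries numbered 3 the forebrain difference of Cyfip1 was -0.10 and the interaction had an unadjusted p of 0.046. The number 3 libraries are the highest WT (98.3) and the lowest Fmr1CRE (67.7) forebrain values of Cyfip1, so the genotypes would overlap in forebrain if those 2 labels were exchanged. When reads were summed without the correction for transcript length the difference in hindbrain was 0.09 in place of 0.23.

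The other members did not pass the test in any region either. Caprin1 in hindbrain, at 168, 159 and 231 CPM in WT and 225, 240 and 248 CPM in Fmr1CRE, gave a log2 fold change of 0.34 (SE 0.147, unadjusted p = 0.047, adjusted p = 0.875), which was 0.10 with plainly summed reads. Cyfip2 gave -0.31 (SE 0.182) in forebrain, where the library Fmr1CRE 1 at 370 CPM was far below the others, -0.18 (SE 0.172) in midbrain and 0.25 (SE 0.126) in hindbrain, with adjusted p values of 0.806, 0.894 and 0.875. Fxr1 gave 0.08, 0.06 and 0.01 and Fxr2 -0.08, 0.18 and 0.03 in the order of the regions, with 95% confidence intervals that reached up to 0.317 for Fxr1 and 0.420 for Fxr2, both in midbrain. Without the forebrain libraries numbered 3 the forebrain differences were -0.05 for Fmr1, 0.05 for Fxr1, -0.06 for Fxr2, -0.43 for Cyfip2, -0.10 for Nufip1 and -0.23 for Caprin1, none of which passed. Isoform usage was called for 0 members in each region, against 0.785%, 0.858% and 1.2% of genes in forebrain, midbrain and hindbrain. Single mice moved this: Caprin1 was called in midbrain without WT 3 (adjusted p = 4.97e-04), and Fmr1 was called in hindbrain without Fmr1CRE 1 (0.00263) or Fmr1CRE 3 (0.0204).

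**Figure D5:**
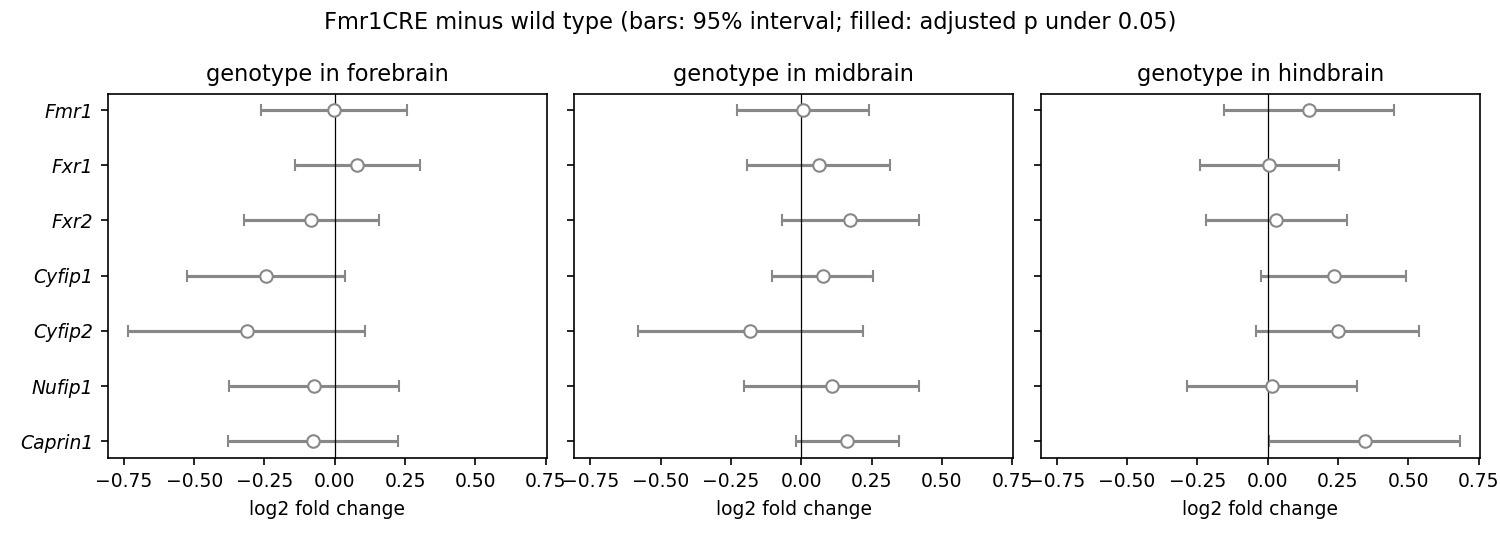
Log2 fold change of Fmr1CRE against WT for the 7 genes in forebrain, midbrain and hindbrain, from edgeR fits on 6 libraries each; points are estimates and bars are 95% confidence intervals. No member passes the adjusted threshold, and Cyfip1 runs from -0.24 in forebrain to 0.23 in hindbrain.

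The pathways around these genes were described with lists of their known partners, counted at the same threshold. In the WAVE regulatory complex, 8 of 12 genes were higher and 0 lower in forebrain than in hindbrain, against 25.7% and 24.4% of all genes. The list had a median log2 fold change of 0.71 against -0.01 over all genes. Wasf1, which encodes the main neuronal WAVE protein, was higher by 2.05 (SE 0.153, adjusted p = 9.4e-08) and Abi2, an adaptor of the complex, by 1.49 (SE 0.164). Midbrain against hindbrain also gave 8 higher and 0 lower (24.6% and 22.9% of all genes), led again by Wasf1 (2.05) and Abi2 (1.40), and between forebrain and midbrain 2 of 12 were higher and 0 lower (8.07% and 8.94% of all genes), Brk1 (0.52), the smallest subunit, and Nckap1l (0.47), the subunit used by blood cells and microglia. The list holds Cyfip1 and Cyfip2 themselves, of which Cyfip2 was among the 8 in both contrasts with hindbrain and Cyfip1 was not. The list had 9 higher and 0 lower between forebrain and hindbrain without the forebrain libraries numbered 3, and 1 higher and 0 lower between forebrain and midbrain.

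Among cap-binding and initiation factors, the machinery that CYFIP1 contacts, 6 of 12 genes were higher and 1 lower in forebrain than in hindbrain (median log2 fold change 0.22), and 6 were higher and 4 lower in midbrain than in hindbrain (0.16). Of all genes, 25.7% were higher and 24.4% lower in forebrain than in hindbrain, and 24.6% and 22.9% in midbrain than in hindbrain. Eif4ebp1, a repressor of eIF4E, was higher by 1.23 and Pabpc1, a poly(A)-binding protein gene, by 1.02 in forebrain against hindbrain, while the helicase gene Eif4a2 was at -0.23. Between forebrain and midbrain 2 were higher and 0 lower (8.07% and 8.94% of all genes), Eif4ebp1 (0.50) and Pabpc1 (0.28). When any mouse was left out, 0 or 1 were called (1 without WT 2 or WT 3 and 0 without each of the other 4). Between 11.5% and 14.1% of all genes were called in these fits. Without the forebrain libraries numbered 3, 0 were called (13.7% of all genes), and forebrain against hindbrain gave 6 higher and 0 lower (40.8% called). Midbrain against hindbrain showed the scaffold Eif4g3 higher by 0.75 and the repressor Eif4ebp3 lower, with a log2 fold change of -1.29. In the box C/D assembly list of NUFIP1, 0 of 11 genes were higher and 1 was lower in forebrain than in hindbrain (Nop56, a core protein of the particle, -0.38). In midbrain 3 were lower than in hindbrain, among them Nop56 (-0.30) and Znhit3 (-0.29), an assembly factor that was the 1 gene higher in forebrain than in midbrain (0.32). In that order of contrasts 9.09%, 27.3% and 9.09% of the list were called, against 50.1%, 47.5% and 17.0% of all genes. The list holds Nufip1 itself, which was not called in any pair of regions. The 3 calls between midbrain and hindbrain became 0 without WT 1 and 1 without WT 2 or WT 3, with 2 without Fmr1CRE 2 or Fmr1CRE 3, and the call between forebrain and midbrain was lost without WT 1, WT 2, Fmr1CRE 2 or Fmr1CRE 3. Between forebrain and hindbrain the list had 1 higher and 0 lower without WT 2, and 0 higher and 1 lower without each other mouse. Of all genes, 43.5% to 48.6% were called between forebrain and hindbrain in these fits, and 38.0% to 44.3% between midbrain and hindbrain. If the forebrain libraries numbered 3 were left out, forebrain had 0 higher and 1 lower against hindbrain and 1 higher and 1 lower against midbrain.

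RNA granule partners of FMRP and CAPRIN1 were higher than in hindbrain for 11 of 21 genes in forebrain (2 lower) and for 15 of 21 in midbrain (3 lower). Of all genes, 25.7% were higher and 24.4% lower in forebrain than in hindbrain, and 24.6% and 22.9% in midbrain than in hindbrain. Mov10, a helicase that works with FMRP, was at a log2 fold change of 1.55 and Ago2, the effector of microRNA silencing, at 1.37 in forebrain against hindbrain, with Caprin2, the relative of Caprin1, at -0.63 and Tdrd3 at -0.28. Between forebrain and midbrain 3 were higher and 4 lower (8.07% and 8.94% of all genes). Ybx1 was at 0.46 and Purb at 0.32, and the ataxin gene Atxn2 was at -0.53 and the CAPRIN1 partner G3bp2 at -0.38. The list holds Caprin1 itself, which was among the 4 lower here and among the 15 higher in midbrain than in hindbrain. The 7 calls between forebrain and midbrain became 3 without WT 1, 4 without WT 2, Fmr1CRE 1 or Fmr1CRE 2 and 5 without WT 3 or Fmr1CRE 3. The share of all genes called there went from 17.0% to between 11.5% and 14.1%. The 13 between forebrain and hindbrain became 8 without WT 1 and 9 to 12 without each other mouse, when 50.1% of all genes became 43.5% to 48.6%. Leaving out the forebrain libraries numbered 3 gave 8 higher and 0 lower against hindbrain (40.8% of all genes called) and 2 higher and 3 lower against midbrain (13.7%). Of 9 messages long known to be bound by FMRP, 7 were higher and 1 lower in forebrain than in hindbrain (median log2 fold change 1.55), 8 higher and 0 lower in midbrain than in hindbrain (1.21), and 4 higher and 1 lower in forebrain than in midbrain (0.58). The shares of all genes were 25.7% and 24.4%, 24.6% and 22.9%, and 8.07% and 8.94% in the same order. For these messages the forebrain counts were 6 and 1 against hindbrain and 3 and 2 against midbrain without the forebrain libraries numbered 3. Camk2a, a kinase of excitatory synapses, was higher by 5.69 and Arc, an activity-induced gene, by 3.16 in forebrain against hindbrain, and Mmp9 was lower (-1.46). Between the genotypes 0 genes of these lists passed the test in any region.

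Genes whose pattern over the 18 libraries was most like that of a member were listed by Pearson's r of log2 CPM among 9044 genes with a mean log2 CPM of at least 4. This is a description across libraries that share regions and mice. Cyfip2 was matched most closely, by Sort1 (r = 0.991), Med14 (0.991) and Rapgef2 (0.990), and Fxr1 by Klhl4 (0.969), Cfl2 (0.966) and Ermn (0.963), the last of which encodes an oligodendrocyte protein. Caprin1 was most like Hnrnpk (0.952), Pik3cb and Gfpt1, and Fmr1 was most like Tmem196 (0.915), Fnip1 and Gm5113. The closest matches of Fxr2 (Hspa5, 0.873), Cyfip1 (Zbtb44, 0.872) and Nufip1 (Strap, 0.771) were weaker.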

How the data were processed

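Poly(A)-selected RNA of forebrain, midbrain and hindbrain from 3 WT and 3 Fmr1CRE male mice was sequenced as single-end reads of 50 bases, in pools whose members are not given in the sources used here. The submitters' processing notes name Salmon 0.14.0, DESeq2 1.30.1 and the mm10 genome; the strand of the reads was not used, so reads of overlapping antisense genes cannot be told apart. The authors deposited a gene table of estimated counts, which lay 0.144% to 0.258% from counts rebuilt as length-scaled TPM and 3.85% to 6.48% from plain sums of reads, and which were rounded to whole numbers here. The deposited transcript files give TPM and estimated counts by Salmon. They were matched to libraries by the mouse and region they are named for, which was the closest gene column for 18 of 18 files, while the record they are stored under was the closest for 2 of 18. A deposited table of log2 values for part of the genes was not used, 0 columns of unknown samples were met, and library totals ran from 22455512 to 28061185.

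Genes were fitted with edgeR 4.0.16 (quasi-likelihood test, TMM scaling, filterByExpr) in R 4.3.3, within each region for genotype, and over 18 libraries with mouse as a block for regions and for the interaction of genotype and region. Isoform usage was tested with diffSpliceDGE of edgeR, with limma 3.58.1 as an alternative, and DESeq2 1.42.0 was an alternative for genes. The threshold was an adjusted p of 0.05, and log2 CPM used a prior count of 2. Ratios, segment shares and neighbouring levels were tested by exact two-sided permutation with adjustment over each family. The tests were tried on simulated data. Further alternatives were no filter, other scaling, WT libraries alone, the mouse block left out or a replicate block added, each mouse left out, and region and interaction fits without the forebrain libraries numbered 3. Added after the data were seen were plain sums of reads, the same libraries left out for genotype, isoform usage and TPM values, and the segment shares without Fxr1-207.

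The block for regions comes from the animal: libraries of a mouse share it by their labels. Deviations of libraries of the same mouse correlated at only -0.170 to 0.178 between regions, so the block rests on the labels. Between genotypes the deviations of same-numbered libraries correlated at -0.12 to 0.0693, also small. The replicate numbers were not used to pair the mice in the main fits. The study's methods state that the mice came from the same litter, so p-values measure the spread between these mice. The members, the pathway lists and the markers were chosen with earlier results of these data known. All 7 members are named, and of each list up to 2 called genes in each direction with the largest change; similar genes are the 3 with the highest r. The edited site was not placed in the genome here.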

Additional observations from a re-analysis of the deposited data

Results flagged for a closer look

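Cyfip1 stood out because the genotypes did not overlap in any region and the direction was not the same in all of them. The interaction of genotype and region did not pass the test after adjustment (edgeR's quasi-likelihood test over 18 libraries, unadjusted p = 0.00788, adjusted p = 0.68). Relative to forebrain the difference was higher by 0.35 on the log2 scale in midbrain and by 0.52 in hindbrain. Cyfip1 was lower in the 3 Fmr1CRE forebrain libraries and higher in the 3 Fmr1CRE libraries of midbrain and of hindbrain than in all WT libraries of the same region. Leaving out 1 mouse gave unadjusted p values from 0.0155 to 0.0390, the fit without the forebrain libraries numbered 3 gave 0.046, and reads summed without the correction for transcript length gave 0.0564. The forebrain values include the libraries numbered 3, at 98.3 CPM in the one labelled WT and 67.7 CPM in the one labelled Fmr1CRE, and with those 2 labels exchanged the genotypes would overlap in forebrain. At an unadjusted p under 0.05 there were 1454 of 20363 genes, and 0 after adjustment.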

How the results depend on the processing

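No log2 fold change of a member changed sign as a called value. In the box C/D list, 0 higher and 1 lower between forebrain and hindbrain became 1 higher and 0 lower without WT 2. The number of members called between forebrain and hindbrain, 3, became 5 without the forebrain libraries numbered 3 (40.8% of all genes called) and 5 with plain sums of reads, an alternative added after the data were seen (59.6%, against 50.1%). Between forebrain and midbrain, 1 became 3 with DESeq2 (21.3% of all genes, against 17.0%), 4 with plain sums of reads (26.3%) and 0 with the WT libraries alone (6.49%). For isoform usage, 1 became 0 with the WT libraries alone in both contrasts of forebrain. The cause of these changes was not tested. Over the fits that each left out 1 mouse, the members called ranged from 3 to 4 between forebrain and hindbrain (43.5% to 48.6% of all genes). They ranged from 0 to 1 between forebrain and midbrain (11.5% to 14.1%) and from 3 to 3 between midbrain and hindbrain (38.0% to 44.3%). For genotype in each region, over the summed regions and in the interaction they ranged from 0 to 0 (at most 0.0254% of all genes). For isoform usage they ranged from 0 to 1 in both contrasts of forebrain, from 0 to 0 between midbrain and hindbrain, from 0 to 0 for genotype in forebrain, and from 0 to 1 for genotype in midbrain and hindbrain.

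Without the block for mouse, 4 members were called between forebrain and hindbrain (51.7% of all genes) and 1 between forebrain and midbrain (19.3%). In the same fits 4 were called between midbrain and hindbrain (49.1%) and 0 in the interaction (0.0%). With a replicate block for genotype 0 were called in each region and over the summed regions (at most 0.00543% of all genes). The replicate block changed no other call of a member. Over all genes, 3464 calls between forebrain and midbrain became 1261 with the WT libraries alone and 5315 with plain sums. Isoform usage calls of 428, 166 and 409 genes between regions became 1386, 355 and 1358 with limma and 779, 374 and 727 without the block, and those of 83, 91 and 130 genes for genotype became 0, 24 and 9 with limma and 33, 45 and 59 with the replicate block. With the WT libraries alone isoform usage was called for 71 genes between forebrain and midbrain and 209 between midbrain and hindbrain, and without the forebrain libraries numbered 3 for 387 genes between genotypes in forebrain. Leaving out 1 mouse gave 279 such genes in forebrain without Fmr1CRE 3 and 478 in hindbrain without WT 3. For expression between genotypes, edgeR's 0, 1, 0 and 1 genes (forebrain, midbrain, hindbrain and summed regions) became 31, 62, 60 and 29 with DESeq2, and 11 in midbrain, 11 in hindbrain and 4 over the summed regions with no filter on low counts. Of 616 alternative values of the members' log2 fold changes, 590 stayed on their side of the threshold. Of 87 isoform shares, 70 moved by more than their SD when taken as reads in place of TPM. With 3 mice a genotype, exact tests cannot go below p = 0.1.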
